A study of Mus musculus with 22 samples.

Results

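The constitutive proteasome genes were followed in mouse liver after a single injection of interferon-gamma. The set held every gene whose symbol on the array's probe table starts with Psma, Psmb, Psmc or Psmd, without Psmb8, Psmb9 and Psmb10, the subunits that interferon-gamma is known to induce. One probe set with a single symbol stood for a gene, the one with the highest mean over all arrays, and this gave 35 of the 8251 genes measured. Among the 35, 14 encode the core (Psma1 to Psma7 and Psmb1 to Psmb7) and 17 encode the regulatory cap (Psmc1 to Psmc6 and 11 Psmd genes). The other 4 are Psmd5, Psmd9 and Psmd10, chaperones that help to assemble the cap and leave it again, and Psmc3ip. Psmc3ip shares only the start of its name with the others: it is a factor of meiotic recombination and no proteasome subunit. Psma8 and Psmb11, the testis and thymus subunits, were not analysed here.

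Livers came from IFNg-/- mice, which make no interferon-gamma, and from SOCS1-/-IFNg-/- mice, which also lack SOCS1, the inhibitor that binds JAK kinases downstream of the interferon-gamma receptor. Every animal, controls included, was therefore without its own interferon-gamma. Mice received 4 µg of recombinant interferon-gamma in 100 µl by intraperitoneal injection, and livers were collected 0.5, 1, 2, 4, 12, 16, 24 or 48 h later. The controls in each genotype were an untreated liver and livers taken 4 h and 12 h after 100 µl of phosphate-buffered saline (PBS). Each of the 22 combinations of genotype and condition had 1 array and no replicate. The labels give neither the age or strain of the mice nor whether a sample was 1 liver or a pool. Tests therefore treated the array pair of a condition (both genotypes) as its replicates, and p-values reflect no more than how these arrays vary, which may in part be technical. All values are log2 expression, and a difference at a time is the mean of both genotypes minus the mean of the 6 control arrays, with its standard error (SE) from limma.

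The proteasome degrades proteins marked with ubiquitin. Its core is a barrel of stacked rings: outer alpha rings (Psma genes) gate the entrance, and inner beta rings (Psmb genes) hold the active sites, of which Psmb6 has the caspase-like, Psmb7 the trypsin-like and Psmb5 the chymotrypsin-like activity. The cap sits on the alpha ring. Its base holds a ring of ATPases (Psmc genes) that unfold substrates, and its lid removes ubiquitin. When interferon-gamma acts on a cell, newly built cores can take up Psmb9, Psmb10 and Psmb8 in place of Psmb6, Psmb7 and Psmb5, which gives the immunoproteasome, a form known for producing peptides for MHC class I. The genes of the constitutive subunits are known to be raised together when the proteasome is inhibited, through the transcription factor NFE2L1 and the antioxidant response element.

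The 250 bases before the start of 4 genes are printed because the results turn on these genes. Psma1 and Psmd5 were the members past the threshold at any time, and Psmb5 and Psmb6 are constitutive active-site subunits. Sequences are from RefSeq, assembly GRCm38.p6, each 5′ to 3′ on the gene's own strand and ending 1 base before the start that RefSeq's promoter table uses. For Psmb6 RefSeq's gene record begins at 70525324, inside the window, so its marked match lies within that record. For Psmd5 the record ends at 34870965 and overlaps the window's last bases. Capitals mark matches on either strand to 3 motifs: TGACNNNGC (core of the antioxidant response element), CCAAT (bound by NFY) and the core of the interferon-stimulated response element, named without letters here.
Psma1, chr7:114276117-114276366, minus strand: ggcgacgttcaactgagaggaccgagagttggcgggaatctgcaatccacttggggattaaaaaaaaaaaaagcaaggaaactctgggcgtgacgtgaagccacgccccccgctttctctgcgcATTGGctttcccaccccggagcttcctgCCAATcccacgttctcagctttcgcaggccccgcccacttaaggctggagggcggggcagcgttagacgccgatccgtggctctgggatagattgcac
Psmd5, chr2:34870963-34871212, minus strand: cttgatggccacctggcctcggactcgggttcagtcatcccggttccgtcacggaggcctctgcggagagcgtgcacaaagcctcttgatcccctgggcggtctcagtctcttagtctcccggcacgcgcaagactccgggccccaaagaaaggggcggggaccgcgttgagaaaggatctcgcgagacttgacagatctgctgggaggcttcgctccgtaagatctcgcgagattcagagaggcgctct
Psmb5, chr14:54617996-54618245, minus strand: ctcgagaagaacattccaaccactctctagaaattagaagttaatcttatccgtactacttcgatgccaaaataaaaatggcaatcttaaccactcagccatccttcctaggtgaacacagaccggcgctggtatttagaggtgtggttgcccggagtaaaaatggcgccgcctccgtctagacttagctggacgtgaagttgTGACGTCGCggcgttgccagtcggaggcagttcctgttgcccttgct
Psmb6, chr11:70525107-70525356, plus strand: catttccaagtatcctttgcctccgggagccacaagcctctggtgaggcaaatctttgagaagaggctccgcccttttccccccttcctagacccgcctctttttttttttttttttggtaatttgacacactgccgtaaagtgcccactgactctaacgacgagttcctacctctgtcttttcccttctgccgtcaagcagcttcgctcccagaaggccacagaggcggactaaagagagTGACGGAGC

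The promoter table held 29 of the 35 genes. TGACNNNGC was in the windows of 5 of these 29 (Psmb5, Psmb6, Psmc6, Psmd12 and Psmd9) and of 11.5% of the 27025 genes in the table. CCAAT was in 12 of the 29, 6 of the 11 core genes and 4 of the 14 cap genes matched, against 37.5% of all genes. The core of the interferon-stimulated response element was in 3 of the 29 (Psmb3, Psmd4 and Psmd9), against 3.46% of all genes. A match describes letters in this window and shows no binding.

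Across the 35 genes the differences after interferon-gamma were small. Of the 280 combinations of gene and time, 3 lay beyond 0.5 in size: Psma7 at 16 h (0.56), Psma4 at 48 h (-0.99) and Psmd11 at 48 h (0.62). None of these 3 passed the threshold of an adjusted p of 0.05 in limma over 8251 genes. A log2 difference of 1, a doubling or halving, lay outside the 95% interval in all combinations except Psma4 at 24 h and 48 h. The members that varied most over the 22 arrays were Psma4 (range 1.64), Psma7 (1.39) and Psmb5 (1.10). The narrowest ranges were those of Psmc4 (0.29), Psmd2 (0.34) and Psmc3ip (0.37). Psmc4, an ATPase of the cap, also had the lowest mean of the set, 3.61, and Psma3 had the highest, 9.48. Probe sets differ in how they bind, so such means do not rank the transcripts. Psmc4, Psmc3ip and Psmd10 all averaged below 5 and detection calls were not analysed here, so a flat course there may be a dim probe set.

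**Figure D1:**
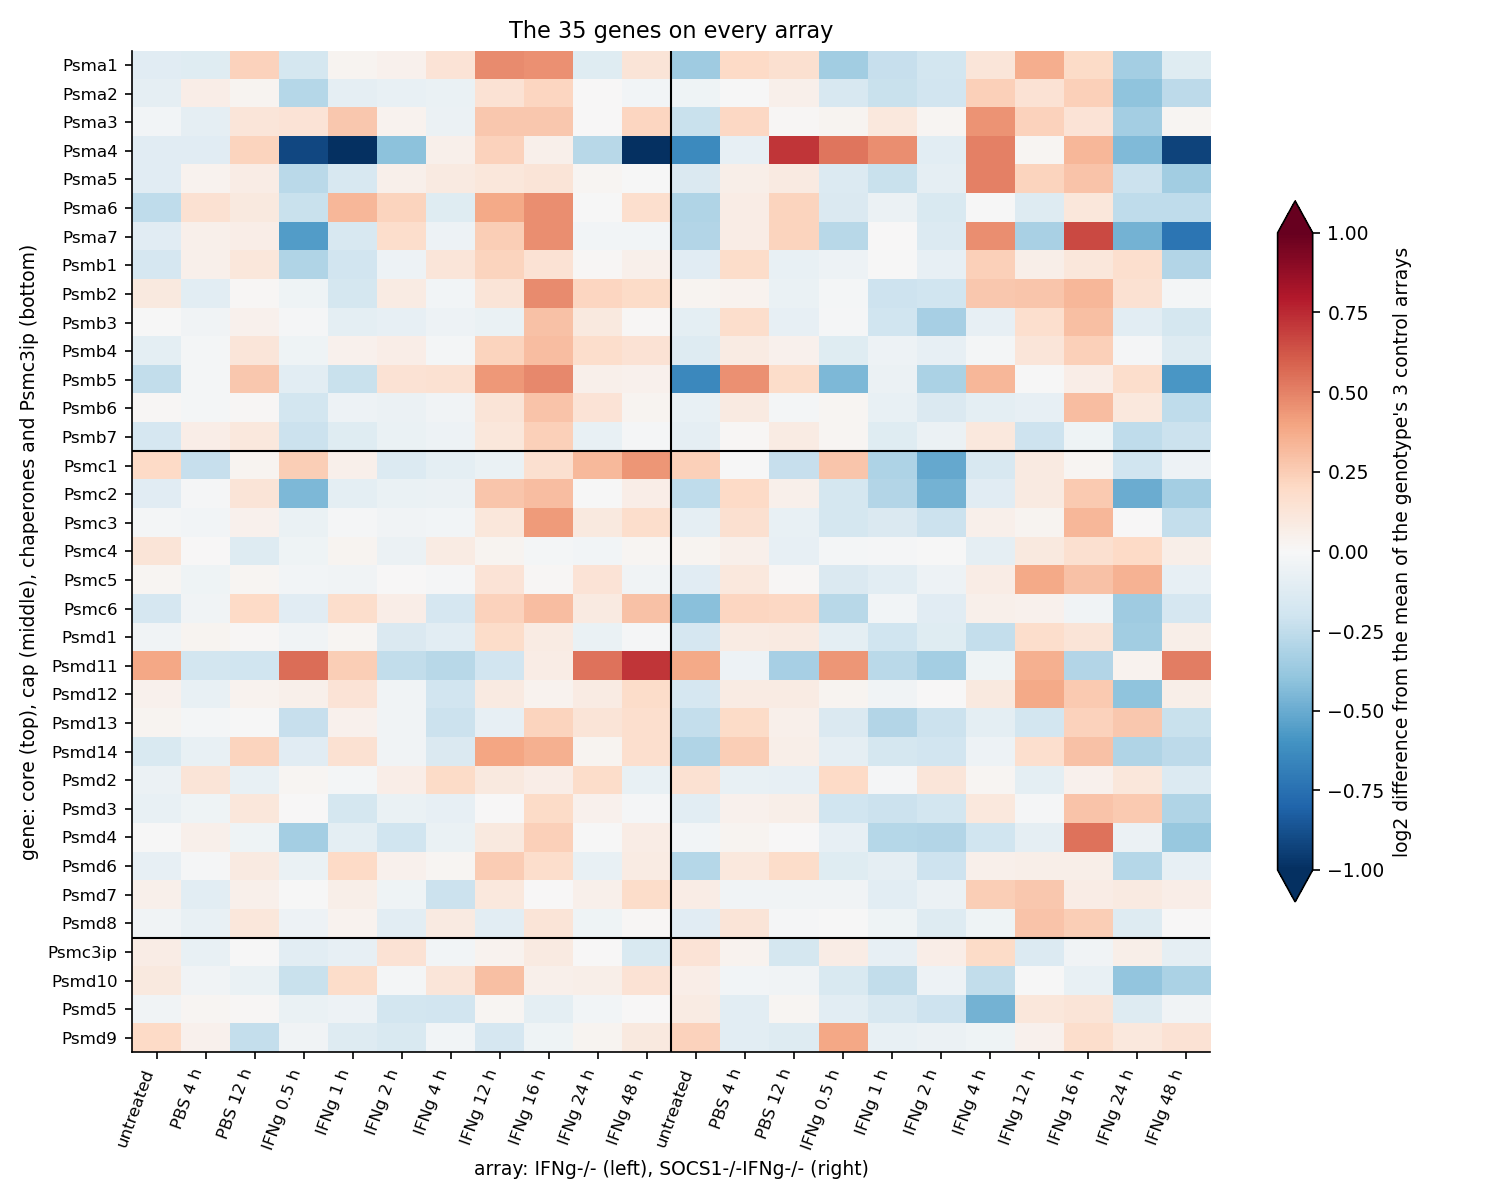
Each of the 35 genes (rows) on each of the 22 arrays (columns), as the log2 difference from the mean of the 3 control arrays of the same genotype; colours stop at -1 and 1. The columns at 16 h are red for most rows in both genotypes, and Psma4 and Psmd11 stand out as rows that vary by array.

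The arrays were alike in scale, with medians between 5.64 and 5.71, and no pair was identical. The SOCS1-/-IFNg-/- 4 h array stood apart: its median correlation with the other arrays across genes was 0.972, against 0.984 to 0.993 for the rest. The 9 hepatocyte markers measured averaged between 11.3 and 11.5 on every array. An RNA quality measure, the log2 value of the 3′ minus the 5′ control probe set of Actb, split the arrays into 9 between 0.87 and 1.56 and 13 between 0.33 and 0.83. The limit between these sets, 0.85, was set after the data were seen. The 9 held both untreated arrays, both 0.5 h and both 48 h arrays, the IFNg-/- 1 h and 24 h arrays and the SOCS1-/-IFNg-/- 12 h array. All 4 PBS arrays and both 2 h, 4 h and 16 h arrays were among the 13. The same measure for Gapdh ran from 0.50 to 1.16 on the 9 arrays and from 0.37 to 0.58 on the 13. These ranges overlapped through the IFNg-/- 48 h array (0.50), so Gapdh did not give quite the same split. A lower summed level of a transcript in whole liver can reflect fewer cells of a type or less RNA per cell, and these cannot be told apart.

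Among the 35 genes 1 rose at any time. Psma1, an alpha ring subunit, was 6.28, 6.27 and 6.62 on the IFNg-/- untreated, PBS 4 h and PBS 12 h arrays and 6.30, 6.86 and 6.82 on the SOCS1-/-IFNg-/- ones. At 12 h after interferon-gamma it was 6.86 in the IFNg-/- liver and 7.02 in the SOCS1-/-IFNg-/- liver. Both arrays lay above all 6 controls, the lower of them only just. The difference was 0.42 ± 0.10 (SE, limma adjusted p = 0.0447), a 1.34-fold rise. The call was lost without the untreated pair (0.30, limma adjusted p = 0.308) and, at a difference still of 0.42, without the pair at 0.5, 1, 2, 24 or 48 h. It was also lost with a further quantile normalization and with the Actb measure as a covariate, 8 of 16 settings in all. Over these 16 settings the limma adjusted p ran from 0.00845 to 0.308. Against the PBS 12 h arrays alone the difference was 0.22 ± 0.12 (limma adjusted p = 0.765). Psma1 was 6.85 at 16 h in both genotypes, a difference of 0.33 ± 0.10 that missed the threshold (limma adjusted p = 0.236). At 24 h it was 6.27 and 6.32, at the level of the untreated arrays.

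One member fell. Psmd5, a chaperone that binds the ATPase ring during assembly of the cap, was 8.14, 8.19 and 8.18 on the IFNg-/- untreated, PBS 4 h and PBS 12 h arrays and 8.27, 8.08 and 8.21 on the SOCS1-/-IFNg-/- ones. At 4 h after interferon-gamma it was 7.98 and 7.72, both below every control. The difference was -0.33 ± 0.08 (SE, limma adjusted p = 0.0313), a 1.26-fold fall. At 2 h both arrays were at 7.98, also below all controls, with a difference of -0.20 ± 0.08 (limma adjusted p = 0.356). By 12 h the values were 8.19 and 8.30, within or above the range of the controls. The call at 4 h was lost with array weights, without the untreated pair (-0.32), without the PBS 12 h pair (-0.32) and with the Actb measure as a covariate (-0.24). Over the 16 other settings the limma adjusted p ran from 0.0206 to 0.283. Against the PBS 4 h arrays alone the difference was -0.29 ± 0.10 (limma adjusted p = 0.222).

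The counts were then set against those of all genes. At 4 h, 1 of 35 members passed, against 5.03% of all genes. At 12 h, 1 of 35 passed, against 1.42%. At the other times 0 of 35 passed in limma, where the share of all genes was 0%, 0.158% and 1.66% in the first 2 h (times 0.5, 1 and 2 h) and then 0.448% (16 h), 0.17% (24 h) and 0.0121% (48 h). At an unadjusted p below 0.05 the members numbered 5, 1 and 5 at the times 0.5, 1 and 2 h, where 5.79%, 4.48% and 11.1% of all genes passed. The 4 h and 12 h counts were 3 (17.9%) and 6 (13.3%). The 16 h count was 13 (8.45%), followed by 4 after 24 h (9.88%) and 2 after 48 h (6.69%). The largest count of members by this rule was the one at 16 h.

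At 16 h most members lay above the controls, by small amounts and with none past the threshold. In limma's fit, 33 of 35 differences were above 0, where 48.2% of all genes were, and the median was 0.19 against -0.0049 over all genes. All 14 core members and 16 of 17 cap members were above 0, with medians of 0.27 and 0.15. The exceptions were Psmd11 and the chaperone Psmd10. The 13 with an unadjusted p below 0.05 were all higher, where 4.67% of all genes were higher by that rule. For 9 members both 16 h arrays lay above all 6 controls, again against 4.67% of all genes: Psma2, Psma7, Psmb2, Psmb3, Psmb4, Psmb6, Psmc3, Psmd3 and Psmd4. Within each genotype, set against its own 3 controls, 32 of 35 members were above 0 in the IFNg-/- liver (median 0.19) and 30 of 35 in the SOCS1-/-IFNg-/- liver (median 0.19). The control arrays showed counts nearly as high: on the IFNg-/- PBS 12 h array 27 of 35 were above the mean of the genotype's controls, and on the SOCS1-/-IFNg-/- PBS 4 h array 26 of 35 were, with medians of 0.05 and 0.08. Each control array was part of that mean of controls, which draws its own differences toward 0. Members share an array and are not replicates, so the 16 h values rest on 2 arrays.

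Psmc3 and Psmb2 had the lowest adjusted p at 16 h. Psmb2, a structural subunit of the beta ring, was 7.40, 7.19 and 7.31 on the IFNg-/- control arrays and 7.52, 7.53 and 7.43 on the SOCS1-/-IFNg-/- ones, and 7.77 and 7.83 at 16 h. The difference was 0.40 ± 0.10 (SE, limma adjusted p = 0.0985), and it passed only when the 4 h pair was left out (limma adjusted p = 0.0316). Psmc3, an ATPase of the cap, was 7.08, 7.07 and 7.14 in IFNg-/- controls and 7.15, 7.40 and 7.16 in SOCS1-/-IFNg-/- controls, and 7.52 and 7.57 at 16 h. The difference was 0.38 ± 0.09 (limma adjusted p = 0.0896), and it passed without the PBS 4 h pair or the 48 h pair (limma adjusted p = 0.0499 and 0.0413). The 2 other probe sets of Psmc3 showed 0.20 and 0.18 at 16 h. Psma7, an alpha ring subunit, had the largest difference, 0.56 ± 0.19 (limma adjusted p = 0.352), from 8.59 and 8.82 against controls between 7.86 and 8.37. Psmd4, the cap's ubiquitin receptor, was at 8.88 and 9.26 against 8.60 to 8.74 in controls (0.39 ± 0.11, limma adjusted p = 0.222).

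The Actb measure differed between the arrays compared: the 16 h arrays (0.62 and 0.77) lay with the PBS arrays (0.66 to 0.83) and apart from the untreated arrays (1.32 and 1.31). On the 9 arrays with a high Actb measure all 14 core members had a lower mean than on the other 13, by a median of 0.16, while 10 of 17 cap members did, by a median of 0.06, and 41.5% of all genes did. Without the untreated pair 34 of 35 members were above 0 at 16 h, with a median of 0.15, and 7 had an unadjusted p below 0.05. With the Actb measure as a covariate the count above 0 was 33, the median 0.18 and the number at an unadjusted p below 0.05 was 13.

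**Figure D2:**
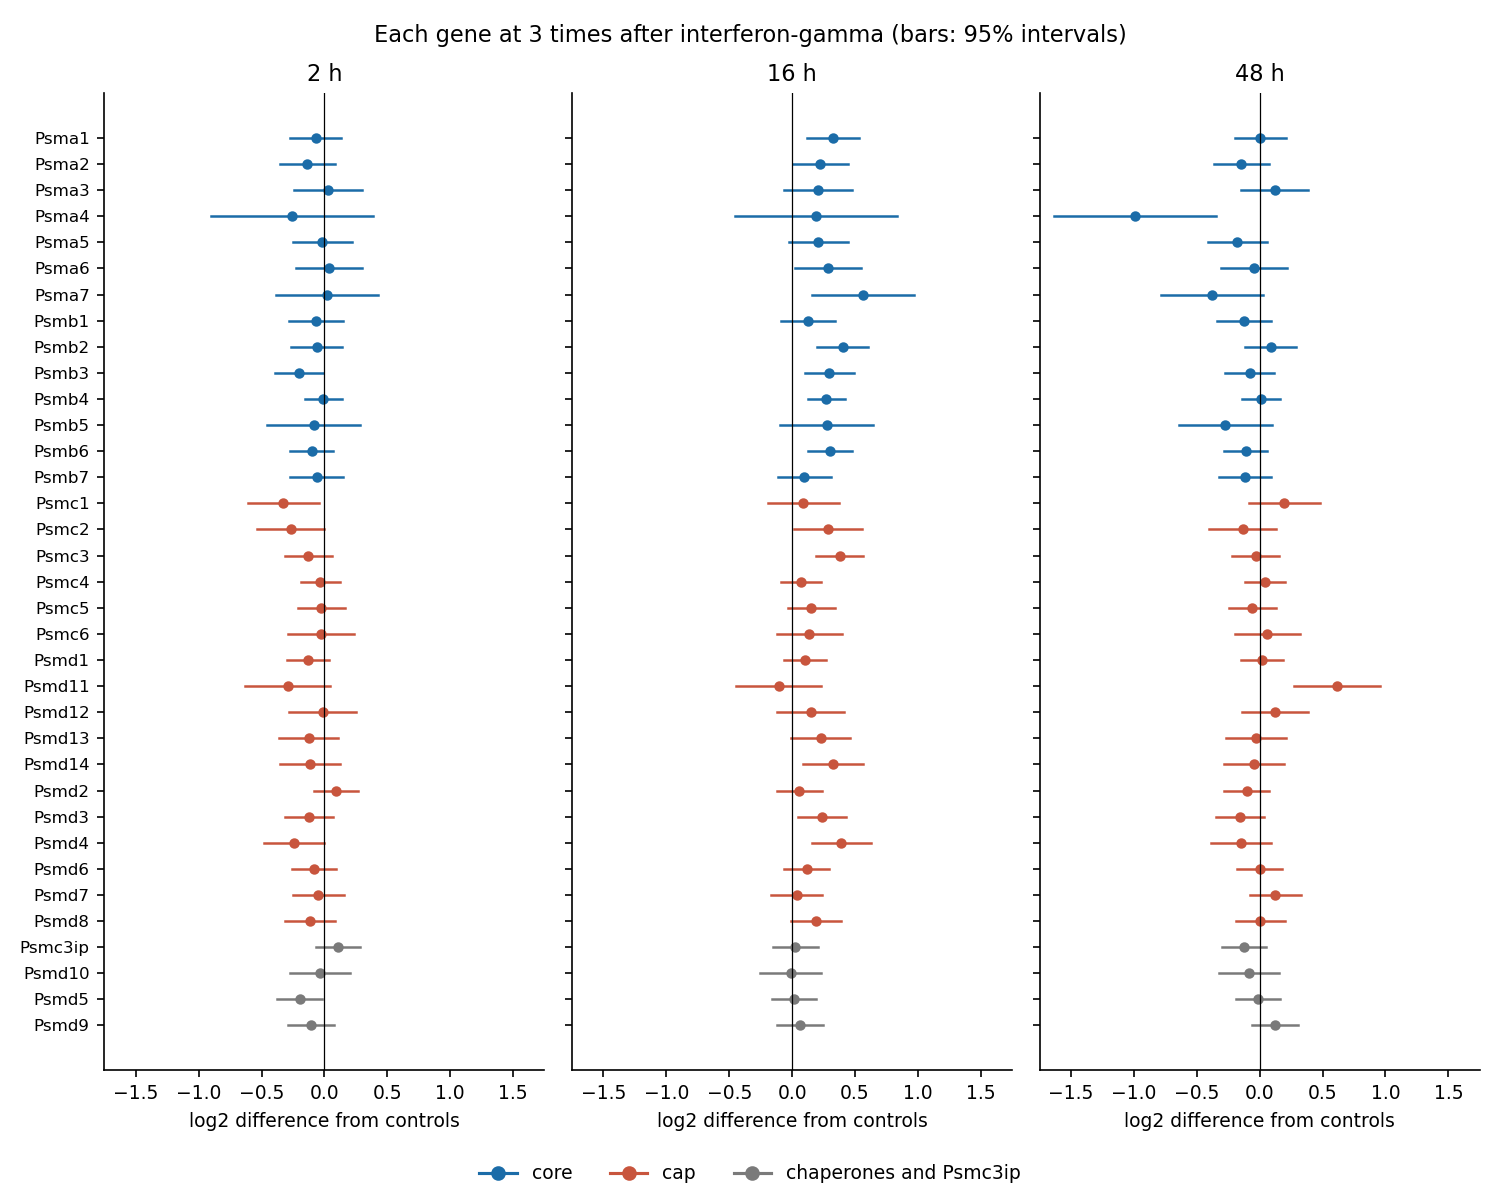
Differences of each gene from the 6 control arrays at 2, 16 and 48 h after interferon-gamma (log2, mean of both genotypes), with 95% intervals from limma; colours give core, cap and the remaining genes. At 16 h 33 of 35 points lie above 0, at 2 h 5 do, and Psma4 and Psmd11 have the points farthest from 0 at 48 h.

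In the first 2 h most members lay below the controls in the mean of both genotypes. At 0.5, 1 and 2 h only 6, 6 and 5 of 35 were above 0, where 50.8%, 42.4% and 43.7% of all genes were. The medians were -0.09, -0.08 and -0.08. Against their own controls, IFNg-/- livers had 6, 16 and 13 members above 0 (47.16%, 45.28% and 42.31% of all genes). In SOCS1-/-IFNg-/- livers 10, 3 and 4 were above 0 (53.7%, 43.87% and 45.72%). The low count at 1 h thus came mainly from the SOCS1-/-IFNg-/- array. Both arrays lay below all 6 controls for 4 members at 1 h (Psma5, Psmb3, Psmd3 and Psmd4, against 4.58% of all genes). At 2 h 5 members did (Psmb3, Psmb6, Psmc3, Psmd4 and Psmd5, against 8.9%), and at 4 h 3 did (Psmd1, Psmd4 and Psmd5, against 8.58%). Psmd4 was thus below all controls at each of these times, at 8.54 and 8.43 at 1 h, 8.44 and 8.42 at 2 h, and 8.57 and 8.52 at 4 h. The count above 0 at 2 h was 11 when the PBS 12 h pair was left out of the controls and 5 without the untreated pair. The count above 0 was 18 of 35 for 4 h (40.2% of all genes), 28 for 12 h (41.7%), 16 for 24 h (55.1%) and 14 for 48 h (49.4%). Against its own controls the IFNg-/- liver gave 10, 29, 23 and 25 at these times (51.95%, 40.95%, 50.07% and 43.85% of all genes). The SOCS1-/-IFNg-/- liver gave 19, 24, 14 and 8 (34.1%, 46.69%, 55.91% and 55.63%). The medians of the genotypes differed in sign at 4, 24 and 48 h. At 12 h both arrays lay above all controls for Psma1, Psma2, Psmb4, Psmd12 and Psmd7, where 6.68% of all genes did.

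The active-site subunits of the constitutive core were compared with their inducible counterparts. In controls Psmb6 was between 8.38 and 8.55, and at 4, 12 and 16 h it was 8.40, 8.57 and 8.73 in IFNg-/- livers and 8.36, 8.38 and 8.77 in SOCS1-/-IFNg-/- livers. Its largest difference was 0.30 ± 0.08 at 16 h (limma adjusted p = 0.191), where both arrays were above all controls. Psmb9, which replaces it, was 6.42, 6.41 and 7.68 in IFNg-/- controls and 6.50, 6.61 and 7.70 in SOCS1-/-IFNg-/- controls, and reached 8.03 in IFNg-/- livers (12 h) and 9.08 in SOCS1-/-IFNg-/- livers (4 h). Psmb9 rose by 1.39 ± 0.23 at 4 h and 1.59 ± 0.23 at 12 h (limma adjusted p = 0.00278 and 0.00201). At 4 h the 95% interval of Psmb6 ran from -0.24 to 0.11.

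For Psmb7 the 95% interval held 0 at every time. It was between 8.04 and 8.37 in controls and between 8.00 and 8.45 after interferon-gamma, and its difference at 12 h was -0.05 ± 0.10 (95% interval -0.26 to 0.16). Psmb10, its counterpart, rose by 0.73 ± 0.16 at 4 h, 1.28 ± 0.16 at 12 h and 1.14 ± 0.16 at 16 h (limma adjusted p = 0.0169, 0.000729 and 0.00256). Its own controls were not level either, at 7.60 to 7.97 untreated or 4 h after PBS and 8.65 and 8.63 at 12 h after PBS.

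Psmb5 had 2 probe sets, which gave different courses. The probe set that stood for it was 7.57 and 7.38 in the untreated livers, 7.80 and 8.48 at 4 h and 8.09 and 8.21 at 12 h after PBS. After interferon-gamma it was between 7.44 and 8.35, inside that range. Its differences at 4, 12 and 16 h were 0.24 ± 0.17, 0.22 ± 0.17 and 0.27 ± 0.17, none past the threshold (limma adjusted p = 0.531, 0.613 and 0.804). The second probe set of Psmb5 stayed between 7.51 and 7.86 on all 22 arrays and gave -0.08, -0.10 and -0.08 at these times. Psmb8, the counterpart, rose by 1.04, 1.83, 1.89 and 1.25 (each ± 0.21) at the times 4, 12, 16 and 24 h (limma adjusted p = 0.00986, 0.000381, 0.000284 and 0.0269). Against the pooled controls all 3 inducible subunits thus rose at 4 h and 12 h and none of the 3 constitutive ones passed. At 4 h Psmb8, Psmb9 and Psmb10 lay above their genotype's controls by 1.64, 2.14 and 1.15 on the SOCS1-/-IFNg-/- array. On the IFNg-/- array these differences were 0.44, 0.64 and 0.31. The IFNg-/- 4 h values (7.21, 7.48 and 8.32) lay below the IFNg-/- PBS 12 h values (7.82, 7.68 and 8.65). Against PBS of the same hour the inducible ones passed at 4 h and not at 12 h.

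**Figure D3:**
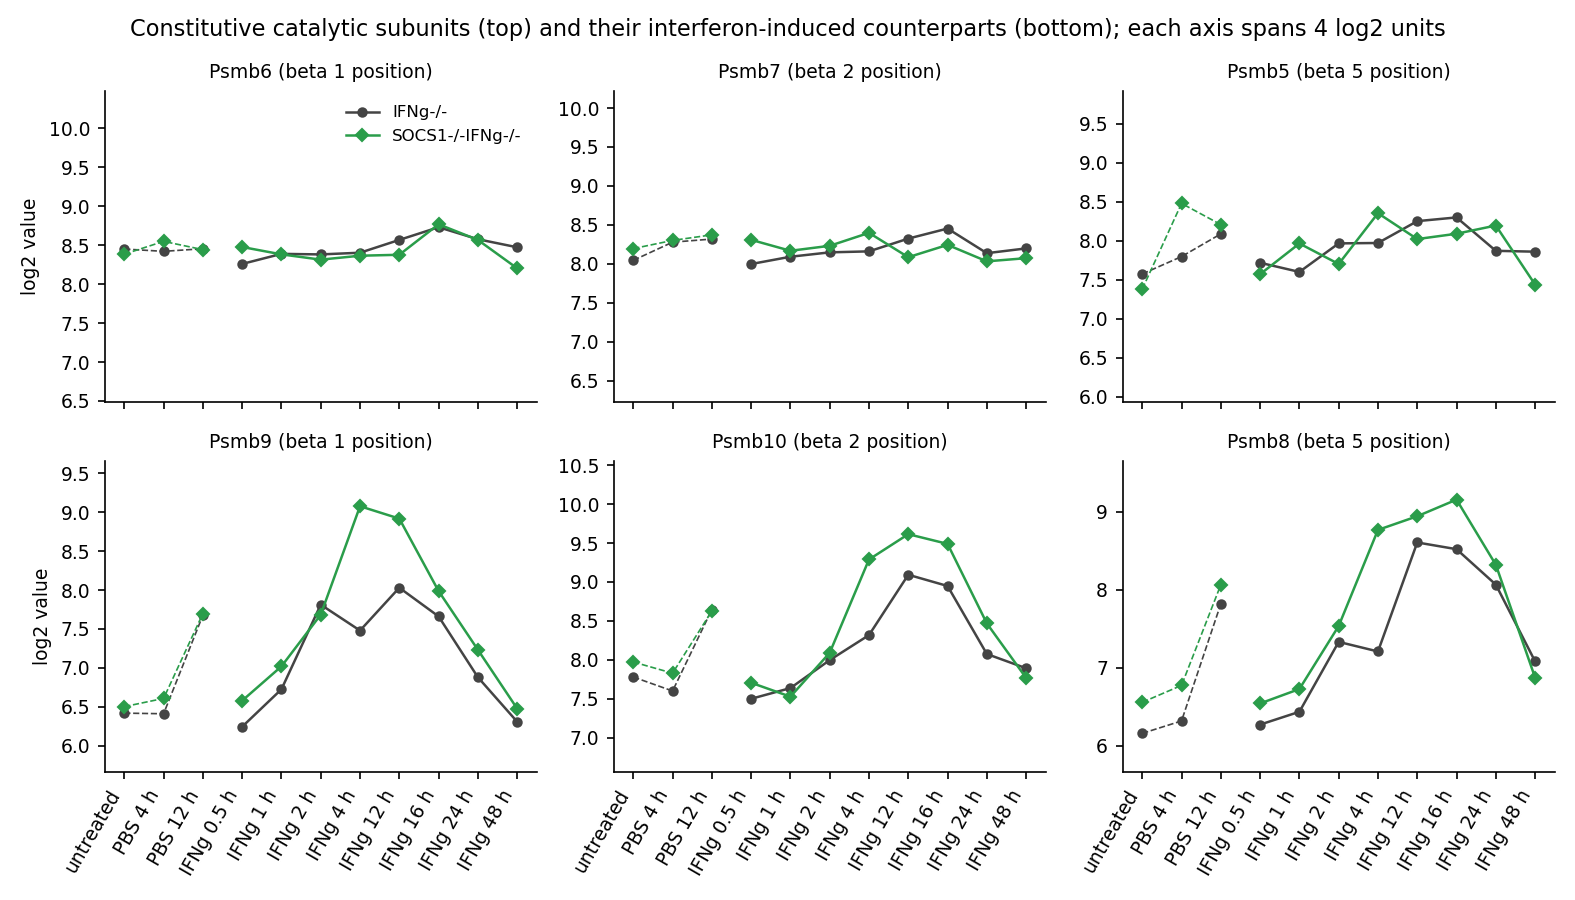
Log2 values of Psmb6, Psmb7 and Psmb5 (top) and of the subunits that replace them, Psmb9, Psmb10 and Psmb8 (bottom), by condition and genotype, 1 array per point; dashed lines join the 3 controls and every axis spans 4 log2 units. The lower panels peak between 8.03 and 9.61 at 4 to 16 h and are raised on both PBS 12 h arrays, while the upper panels stay between 7.38 and 8.77.

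Among the other core members, none passed apart from Psma1 at 12 h. In the beta ring, the structural subunits Psmb3 and Psmb4 lay above all controls at 16 h, at 9.51 and 9.63 against 9.18 to 9.50, and at 9.58 and 9.60 against 9.17 to 9.45. Psmb4 differed by 0.27 ± 0.07 (limma adjusted p = 0.152), and after a further quantile normalization it passed (0.30, limma adjusted p = 0.0221). The 2 dimmer probe sets of Psmb4 gave 0.09 and 0.06 at 16 h. Psmb1 differed by 0.13 at 16 h in the probe set used, and by -0.04 and -0.02 in its other 2. In the alpha ring, Psma2 differed by 0.23, Psma5 by 0.21 and Psma6 by 0.29 at 16 h, none past the threshold.

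Psma4, an alpha ring subunit, had the widest spread of the set, in control arrays too. It was 9.37, 9.37 and 9.71 in IFNg-/- controls and 8.45, 8.999 and 9.80 in SOCS1-/-IFNg-/- controls. The pair at 0.5 h was 8.58 in the IFNg-/- liver and 9.62 in the SOCS1-/-IFNg-/- liver, and the pair at 1 h was 8.47 and 9.54, while the untreated pair differed the other way. Over all pairs the genotype difference was -0.07 ± 0.16 (limma adjusted p = 0.981). At 48 h both were low, at 8.42 and 8.16, below all controls. The difference at 48 h was -0.99 ± 0.30 with a 95% interval from -1.64 to -0.35 (limma adjusted p = 0.453). The Actb measure was high on both 48 h arrays (1.33 and 1.56), and with it as a covariate the difference was -0.998.

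In the cap, no subunit passed at any time. At 16 h the ATPases Psmc1, Psmc4, Psmc5 and Psmc6 differed by 0.07 to 0.15 and Psmc2 and Psmc3 by 0.29 and 0.38. Of the scaffold subunits of the base, Psmd1 differed by 0.11 and Psmd2 by 0.06. Psmd14, the deubiquitinase of the lid, was 7.54 and 7.68 at 16 h against 7.03 to 7.63 in controls (0.33 ± 0.11, limma adjusted p = 0.379). Psmd3, a lid subunit, was 8.36 and 8.54 against 8.09 to 8.31 (0.24 ± 0.09, limma adjusted p = 0.434). Psmc5 differed by 0.26 ± 0.09 at 12 h (limma adjusted p = 0.207) and 0.24 ± 0.09 at 24 h. The chaperones Psmd9 and Psmd10 and the unrelated Psmc3ip differed by at most 0.07 in size at 16 h.

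Psmd11, a lid subunit, was in its highest probe set between 9.34 and 9.81 on the 9 arrays with a high Actb measure and between 8.81 and 9.19 on the other 13, without overlap, a difference of 0.63 between the means. The limit between these sets of arrays was set after the data were seen. It lies in a narrow gap of the measure, from 0.83 to 0.87. The share of all genes without overlap between the sets was not counted. Its 2 other probe sets were between 6.87 and 7.63 on all arrays and differed by -0.08 and 0.07 between the same sets of arrays. At 48 h the probe set used differed from the controls by 0.62 ± 0.16 (limma adjusted p = 0.339) and the others by 0.02 and -0.01. The probe set that stood for Psmb5 differed the other way, at 7.67 ± 0.21 (SD) on the 9 arrays and 8.11 ± 0.22 on the 13, where its other probe set gave 7.69 on both. Psmc1 was higher on the 9 arrays by 0.32, and Psma4 and Psma7 were lower by 0.56 and 0.42.

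**Figure D4:**
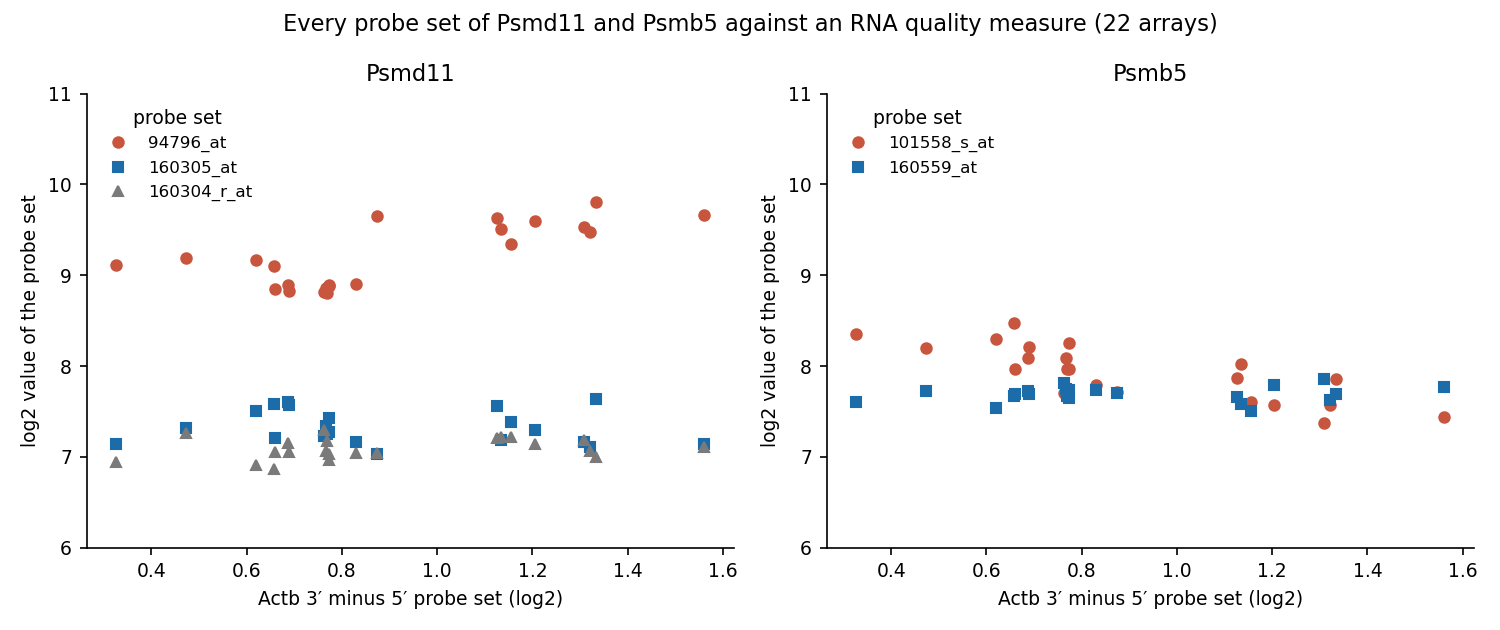
Log2 values of every probe set of Psmd11 (left) and Psmb5 (right) on the 22 arrays against the Actb 3′ minus 5′ difference of the array. The highest probe set of Psmd11 (red) lies at 9.34 or above on the 9 arrays over 0.87 and at 9.19 or below on the rest, while the other probe sets of Psmd11 lie between 6.87 and 7.63 and the second one of Psmb5 between 7.51 and 7.86. The limit between these sets of arrays was set after the data were seen.

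Core and cap were compared on each array as the median difference of the 14 core members minus that of the 17 cap members, both from the controls of the same genotype. Over the 6 control arrays this value ran from -0.09 to 0.07, with an SD of 0.06. Each control array was part of the mean subtracted from it, unlike the interferon-gamma arrays. The range of the controls is therefore too narrow a measure for those arrays, and lying outside it is only a description. Averaged over both genotypes core minus cap was -0.08, -0.03 and 0.06 for the times 0.5, 1 and 2 h. It was 0.16 for 4 h, 0.06 for 12 h and 0.07 for 16 h, and then -0.11 for both 24 h and 48 h. The averages at 4, 24 and 48 h lay outside the range of the controls, each through the SOCS1-/-IFNg-/- array. At 4 h the SOCS1-/-IFNg-/- liver gave 0.28 (core 0.24, cap -0.04), and the IFNg-/- liver gave 0.05 (core -0.03, cap -0.08). The SOCS1-/-IFNg-/- 4 h array was the one least like the others. It also had the lowest Actb measure, 0.33. Without the PBS 12 h pair among the controls the 24 h value was -0.026. At 24 h the SOCS1-/-IFNg-/- array gave -0.18 (Actb measure 0.47) and the IFNg-/- array -0.04 (1.13). At 48 h they gave -0.17 (1.56) and -0.05 (1.33), so the IFNg-/- arrays were inside the range of the controls at both times. Single IFNg-/- arrays lay outside it at other times, at -0.16 (0.5 h), -0.14 (1 h), 0.077 (2 h), 0.12 (12 h) and 0.13 (16 h). So did the SOCS1-/-IFNg-/- 1 h array, at 0.076. With 2 arrays per time no test of core against cap was made.

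**Figure D5:**
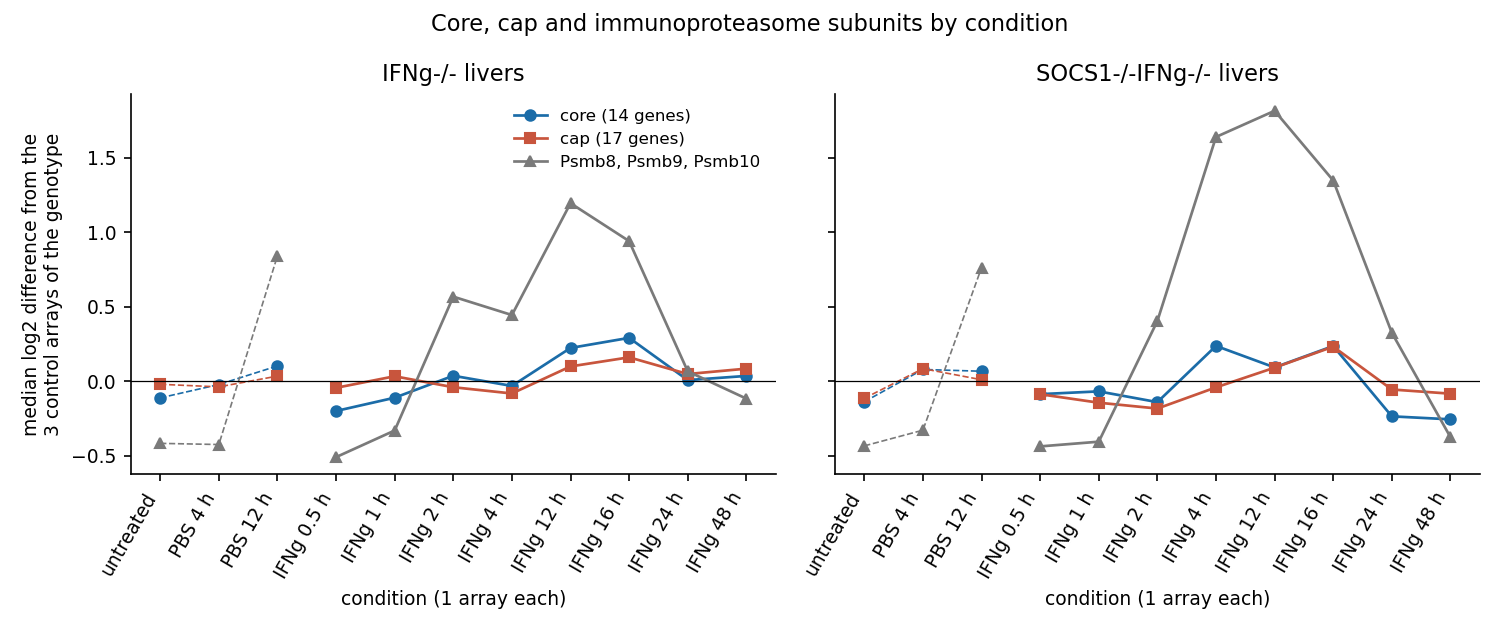
Median log2 difference from the 3 control arrays of the genotype for the 14 core genes, the 17 cap genes and Psmb8, Psmb9 and Psmb10, by condition, in IFNg-/- livers (left) and SOCS1-/-IFNg-/- livers (right); dashed lines join the controls. Core and cap stay within 0.30 of 0 throughout, and both are above 0 at 12 and 16 h in both genotypes, while the inducible subunits reach 1.19 and 1.81.

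PBS and untreated livers were compared to see how far the controls differ among themselves. The 4 PBS arrays against the 2 untreated arrays gave 0 of 35 members past the threshold in limma (0.0242% of all genes) and 10 at an unadjusted p below 0.05 (11.7% of all genes), 7 higher and 3 lower. The largest was Psmb5, 0.67 ± 0.19 (limma adjusted p = 0.239). Psma1 differed by 0.35 ± 0.10, Psma6 by 0.41 ± 0.13 and Psmc6 by 0.44 ± 0.13. The 3 lower were Psmd11 (-0.57 ± 0.17), Psmc1 (-0.33 ± 0.14) and Psmd9 (-0.32 ± 0.09), all of which were also higher on the arrays with a high Actb measure. Untreated and PBS arrays did not overlap in that measure, so injection and RNA quality cannot be told apart here. Of the core members 13 of 14 were above 0 in this comparison, with a median of 0.20, and of the cap members 12 of 17 were, with a median of 0.09.

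Set against PBS at the same hour, interferon-gamma gave no member past the threshold in limma. At 4 h this was 0 of 35 (1.36% of all genes), with 2 at an unadjusted p below 0.05 (12.1%), both lower: Psmd5 and Psmd1 (-0.22 ± 0.10). At 12 h it was 0 of 35 (0.109%), with 1 at an unadjusted p below 0.05 (7.07%), Psmc5 at 0.24 ± 0.11 (limma adjusted p = 0.66). At 4 h the inducible Psmb8, Psmb9 and Psmb10 rose in the same fit by 1.44 ± 0.26, 1.77 ± 0.28 and 1.09 ± 0.20 (limma adjusted p = 0.0115, 0.00559 and 0.0129). At 12 h they differed by 0.83 ± 0.26, 0.79 ± 0.28 and 0.72 ± 0.20 and did not pass (limma adjusted p = 0.384, 0.51 and 0.277). PBS arrays exist for these hours only, so the 16 h values have no PBS array of their own time.

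No member passed in the comparison of genotypes. Over all 11 pairs of arrays, 0 of 35 members passed in limma (0.206% of all genes) and 3 had an unadjusted p below 0.05 (8.06%). These were Psmb2 (0.17 ± 0.05, limma adjusted p = 0.281), Psma1 (0.13 ± 0.05) and Psmc5 (0.11 ± 0.05), all higher without SOCS1. The difference between genotypes at 4 to 16 h minus that in the other pairs gave 0 of 35 (0.267%) and 4 at an unadjusted p below 0.05 (9.21%), led by Psmd12 at 0.36 ± 0.12 (limma adjusted p = 0.266). This window and the 4 h one were chosen with earlier results of these data known, so their p-values are only descriptive.

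The genotypes were also compared at 4 h alone. The pair at 4 h against the 10 other pairs gave 0 of 35 past the threshold in limma (3.36% of all genes) and 6 at an unadjusted p below 0.05 (19.4% of all genes). Psmd7, a lid subunit that pairs with Psmd14, was 7.92 in the IFNg-/- liver and 8.40 in the SOCS1-/-IFNg-/- liver at 4 h, where controls were between 8.03 and 8.23. Its genotype difference exceeded that of the other pairs by 0.46 ± 0.12 (limma adjusted p = 0.057), and it passed without the 12 h pair (limma adjusted p = 0.0409). Psma3, an alpha ring subunit, was 9.29 and 9.90 at 4 h, and its excess was 0.61 ± 0.17 (limma adjusted p = 0.0665), and it passed without the PBS 4 h pair (limma adjusted p = 0.00823). Its probe set is marked as one that may bind related transcripts. Psma5 (0.45 ± 0.16), Psma2 (0.38 ± 0.16) and Psmb2 (0.35 ± 0.15) were higher too, and Psmd5 was lower (-0.28 ± 0.13). Of the core members 13 of 14 were above 0, with a median of 0.29, and of the cap members 12 of 17, with a median of 0.16, where 37.5% of all genes were. In the same fit the genotype difference of Psmb8 and Psmb9 at 4 h exceeded that of the other pairs by 1.27 ± 0.20 and 1.34 ± 0.24 (limma adjusted p = 0.00193 and 0.00522). After a further quantile normalization 9 of 14 core members and 11 of 17 cap members were above 0. Their medians were 0.16 and 0.07, and 41.5% of all genes were above 0. The comparison at 4 h rests on 1 pair with 1 array per genotype, so it takes the spread from the other pairs, and its SOCS1-/-IFNg-/- array stood apart from all others.

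Genes that act with the proteasome were taken from lists by role. Of the activators and caps other than the regulatory cap, 3 of 5 were measured. Psme1, a subunit of the interferon-inducible activator that can sit on the core in place of the cap, rose by 0.92 ± 0.15 at 12 h and 0.75 ± 0.15 at 16 h (limma adjusted p = 0.00356 and 0.0304). Against PBS 12 h alone its 12 h difference was 0.57 ± 0.18 and did not pass (limma adjusted p = 0.393). The other measured members of that list did not pass at any time. Of 6 assembly factors 5 were measured and none passed in limma at any time; at 16 h Pomp and Psmg4 had an unadjusted p below 0.05. Pomp, which builds the beta rings, differed by 0.12 ± 0.07 at 12 h and 0.19 ± 0.07 at 16 h (limma adjusted p = 0.49 and 0.411). Psme2 and Psmf1 were not analysed here.

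Of 12 genes that control proteasome genes 9 were measured. Nfe2l2, the relative of NFE2L1 that also binds the antioxidant response element, rose by 0.57 ± 0.10 at 12 h (limma adjusted p = 0.0104). Against PBS 12 h alone the Nfe2l2 difference was 0.35 ± 0.13 and did not pass (limma adjusted p = 0.51). Nfe2l1 itself did not pass, with 0.25 ± 0.10 at 4 h (limma adjusted p = 0.2) and 0.03 ± 0.10 at 12 h. Mafk, a small partner of both factors, rose by 0.45 ± 0.10 at 2 h and by 0.45 ± 0.10 at 4 h (limma adjusted p = 0.0356 and 0.0163). Against PBS 4 h alone the Mafk difference was 0.33 ± 0.12 and did not pass (limma adjusted p = 0.25). Psmb5 and Psmb6, whose printed windows hold the core of the antioxidant response element, differed at 12 h by 0.22 ± 0.17 and 0.02 ± 0.08. The second probe set of Psmb5 gave -0.10. Psmc6, Psmd12 and Psmd9, whose windows also held that core, did not pass at 12 h.

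Of 15 proteasome-bound factors 10 were measured, and Rad23b and Zfand5 fell at 4 h. Rad23b, a shuttle that carries ubiquitinated proteins to the cap, fell by 0.40 ± 0.07, and Zfand5, which activates the proteasome, by 0.52 ± 0.12 (limma adjusted p = 0.00438 and 0.0163). Against PBS 4 h alone the differences were -0.30 ± 0.09 for Rad23b and -0.50 ± 0.14 for Zfand5, and neither passed (limma adjusted p = 0.12 and 0.118). Of 13 genes for ubiquitin and its activation 5 were measured. Uba7, the activating enzyme of the ubiquitin-like ISG15, rose by 0.72 ± 0.17 at 4 h and 1.00 ± 0.17 at 12 h (limma adjusted p = 0.0213 and 0.00562). Against PBS of the same hour Uba7 differed by 0.84 ± 0.20 and 0.86 ± 0.20 and did not pass (limma adjusted p = 0.0598 and 0.222). Of 8 genes of the VCP segregase 4 were measured and none passed in limma at any time, with Vcp at an unadjusted p below 0.05 at 16 h (0.19, limma adjusted p = 0.568).

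Markers of other liver cells were read beside the 4, 12 and 16 h results. Of 9 macrophage markers measured, Cd14 rose at 4 h (0.40 ± 0.07, limma adjusted p = 0.00417). The median of that list was -0.29 at 16 h with 3 of 9 above 0, and its summed linear level ran from 903 to 1130 in controls, 983 to 1112 at 0.5 to 4 h and 704 to 1236 at 12 to 48 h. Of 8 neutrophil markers, S100a8 and S100a9 passed in the genotype difference at 4 to 16 h minus the other pairs (1.06 ± 0.16 and 0.83 ± 0.13, limma adjusted p = 0.0149 for both). In that comparison 4 of the 8 were above 0, and the median of the list was 0.003. S100a8 and S100a9 were dim, below 5 except on the SOCS1-/-IFNg-/- 4 h and 12 h arrays. With trend and robust variance 3 of all genes were called in that comparison, in place of 22. No marker of lymphocytes, cholangiocytes, stellate cells, endothelium or dividing cells passed at these times. The part of cell composition in the member values was not tested.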

How the data were processed

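Liver RNA was extracted with Trizol and an RNeasy column, made into biotin-labelled cRNA and hybridised to Affymetrix arrays, per the labels' protocols. The deposited values are on a log2 scale and were normalized by the authors; the submitters' processing notes name affy, and neither the background correction nor the normalization or summary method is given in what was used here. Of 12488 probe sets, 10833 carry 1 symbol, 396 several, 1193 none and 66 are controls; the probe set with the highest mean stood for each of 8251 genes, and 0 columns of sample values were left unused. limma 3.58.1 (R 4.3.3) fitted condition plus genotype (10 residual degrees of freedom) or genotype differences of array pairs (9), with Benjamini-Hochberg adjustment over 8251 genes and a threshold of 0.05. The code was tested on simulated data. Named were all members past the threshold, the active-site subunits with their counterparts, the widest and narrowest ranges, the highest and lowest means and called genes of the pathway lists; further names at 16 h, at 48 h and in the genotype comparison were chosen after their values were seen. The members, the lists and the 4 h and 4 to 16 h windows of the genotype comparison were chosen with earlier results of these data known. Alternatives were array weights, trend and robust variance, renewed quantile normalization, probe set means, dim genes left out, each pair left out and, added after seeing the data, an Actb covariate; the Actb limit of 0.85 was also set then. The number of arrays limits the precision. One further motif searched is not reported here. Figures were drawn with matplotlib 3.10.9.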

Additional observations from a re-analysis of the deposited data

Results flagged for a closer look

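Genotype differences that themselves differed between times were found by limma in 6 genes of the lists, none of them a constitutive proteasome gene. In the 4 h pair minus the other pairs, the genotype difference was larger by 1.27 for Psmb8, 1.34 for Psmb9, 0.91 for Uba7 and 0.52 for Mafk (limma adjusted p = 0.00193, 0.00522, 0.0154 and 0.0326). In the pairs at 4 to 16 h minus the others it was larger by 1.06 for S100a8 and 0.83 for S100a9 (limma adjusted p = 0.0149 for both). S100a8 and S100a9 were dim, below 5 except on the SOCS1-/-IFNg-/- 4 h and 12 h arrays. Both time windows were chosen with earlier results of these data known, so these p-values are only descriptive. The 4 h comparison rests on 1 pair with 1 array per genotype and no replicate, and its SOCS1-/-IFNg-/- array was the one least like the others (median correlation 0.972, Actb measure 0.33).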

How the results depend on the processing

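Of 534 values recomputed under alternatives for 34 results, 488 were scored as the same as in the fit reported. The rule depended on the kind of result. Differences of named genes had to keep their direction and side of the threshold. Counts of members had to stay within a set fold change. Core minus cap had to move by less than its SD over the control arrays. Of the named genes, Psmd5, Psma1, Psmc3, Psmb2, Psmd7, Psma3, Psma4, Psmd11 and Psma7 were recomputed, each in 1 comparison. None of these and no core minus cap value reversed direction. The other named genes were not part of this check. At most 1 member was called in any single comparison under any setting. Members called at 4 h were 0 with array weights and 0 with the Actb covariate; at 12 h they were 0 with renewed quantile normalization and 0 with the covariate. At 16 h 1 was called (Psmb4) with quantile normalization. In the genotype difference at 4 h minus other pairs 1 was called with trend and robust variance (Psma3) and 1 with probe set means (Psmd7); array weights were not run there. Leaving out each pair gave 0 to 1 called at 4, 12 and 16 h and in that comparison, and 0 elsewhere. Members above the controls at 2 h ranged from 5 to 11. Core minus cap was 0.10 at 4 h with probe set means, 0.14 at 16 h with all Psmc and Psmd genes in the cap, -0.026 at 24 h with untreated and PBS 4 h controls and -0.19 at 48 h with means over members. With a pair left out it ran from -0.16 to -0.026 at 24 h, the latter without the PBS 12 h pair. Over all genes, calls ranged from 86 to 420 at 2 h (137 in the fit reported), 84 to 459 at 4 h (415), 54 to 187 at 12 h (117) and 15 to 60 at 16 h (37). The causes were not tested. The genotype fit over all pairs pairs the arrays by condition; without that pairing (no replicate block) 0 members were called, as with it, and 5 of all genes in place of 17. The labels give no replicate numbers.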
